A study of Homo sapiens with 87 samples.

Results

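The genes described here are 45 genes of DNA replication and mitosis, among 35438 genes counted. They were taken by name from a list of proliferation genes, which was chosen with earlier results of these data known. They comprise 24 genes of replication and 21 of mitosis. All 45 were found in both deposited gene tables and all 45 had enough reads to be tested in each. All libraries came from HAP1, a human line with a mostly haploid genome that goes back to a chronic myeloid leukaemia, in which genes of the BAF chromatin-remodelling complex had been removed. The first table holds 12 libraries in 6 groups of 2: ARID2 knockout with SMARCA4 knockdown, SMARCA4 knockout with ARID2 knockdown, wild type with both knockdowns, ARID2 knockout with a control knockdown, SMARCA4 knockout with a control knockdown, and wild type with a control knockdown. The first 3 are called double losses and the next 2 single knockouts. The second table holds 75 libraries in 25 groups of 3, namely 24 knockout clones of 22 genes and wild type, with no knockdown. ARID1A and SMARCA4 each have 2 clones (618-10 and 618-3, and 2878-4 and 2878-6); every other knockout stands on 1 line, so a clone and its genotype cannot be told apart. The labels give no clone number for SMARCC2 or for the knockout lines with knockdowns, and nothing in them states that replicates were grown as separate cultures, so p-values measure the spread between these libraries, which may be technical.

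A cell copies its genome once per division. Origins are licensed when CDC6 and CDT1 load the MCM2 to MCM7 helicase, the helicase is activated by CDC45, the GINS proteins and MCM10, and E2F factors switch on many of these genes before S phase. The mitotic genes are expressed later, around G2, when cyclin B and CDK1 drive entry into mitosis, the spindle checkpoint delays anaphase until kinetochores are attached, and kinesins move chromosomes and split the cell. In proliferating cell populations the messages of both sets are commonly read as a sign of cycling. BAF (SWI/SNF) uses an ATPase, SMARCA4 or its paralogue SMARCA2, to slide or evict nucleosomes, and ARID2 belongs to the form of the complex that also holds PBRM1.

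Promoters of the members described most below are shown because replication and mitosis members differ in the motifs they hold. Each is 300 bases, from 250 before to 50 after the start, on the gene's own strand, from RefSeq on GRCh38.p14 (the deposited tables are on GRCh37 per the submitters' processing notes, so these coordinates are not theirs). Capitals mark matches to CCAAT, to the CHR (cell cycle genes homology region, TTTGAA or TTCGAA) or to an E2F core (TTGGCGC or TTGCCGC, or else TTCGCGC or TTCCCGC). Each was read on both strands, so the reverse complements are marked too, and matches may overlap: in MCM6, TTGGCGC shares letters with GCGCGAA, an E2F core on the other strand. The windows are E2F2 at chr1:23531184-23531483 (minus), MCM6 at chr2:135876394-135876693 (minus), TYMS at chr18:657403-657702 (plus), CCNB2 at chr15:59104896-59105195 (plus), TOP2A at chr17:40417847-40418146 (minus) and KIF20A at chr5:138178862-138179161 (plus).
E2F2: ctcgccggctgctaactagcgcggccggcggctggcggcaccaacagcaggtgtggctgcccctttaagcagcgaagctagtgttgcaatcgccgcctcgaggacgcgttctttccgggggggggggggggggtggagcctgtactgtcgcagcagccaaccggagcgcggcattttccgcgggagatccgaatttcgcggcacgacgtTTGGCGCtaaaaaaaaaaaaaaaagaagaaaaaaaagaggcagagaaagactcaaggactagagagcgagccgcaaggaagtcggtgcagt
MCM6: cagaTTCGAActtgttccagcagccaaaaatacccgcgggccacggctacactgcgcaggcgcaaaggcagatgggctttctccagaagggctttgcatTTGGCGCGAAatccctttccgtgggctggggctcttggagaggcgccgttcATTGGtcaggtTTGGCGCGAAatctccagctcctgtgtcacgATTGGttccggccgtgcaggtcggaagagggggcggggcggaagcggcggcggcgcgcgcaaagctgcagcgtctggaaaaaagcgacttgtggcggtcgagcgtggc
TYMS: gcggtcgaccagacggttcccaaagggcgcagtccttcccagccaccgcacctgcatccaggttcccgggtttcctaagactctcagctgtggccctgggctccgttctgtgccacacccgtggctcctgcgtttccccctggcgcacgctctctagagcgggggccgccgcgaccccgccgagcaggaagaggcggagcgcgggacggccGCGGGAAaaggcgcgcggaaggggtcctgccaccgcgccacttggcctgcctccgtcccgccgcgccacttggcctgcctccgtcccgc
CCNB2: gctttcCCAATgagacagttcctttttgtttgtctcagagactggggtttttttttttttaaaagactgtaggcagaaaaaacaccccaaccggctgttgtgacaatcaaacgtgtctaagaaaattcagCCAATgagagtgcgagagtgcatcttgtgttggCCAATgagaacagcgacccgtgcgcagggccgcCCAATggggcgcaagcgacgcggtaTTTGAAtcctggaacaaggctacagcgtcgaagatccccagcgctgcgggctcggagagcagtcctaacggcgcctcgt
TOP2A: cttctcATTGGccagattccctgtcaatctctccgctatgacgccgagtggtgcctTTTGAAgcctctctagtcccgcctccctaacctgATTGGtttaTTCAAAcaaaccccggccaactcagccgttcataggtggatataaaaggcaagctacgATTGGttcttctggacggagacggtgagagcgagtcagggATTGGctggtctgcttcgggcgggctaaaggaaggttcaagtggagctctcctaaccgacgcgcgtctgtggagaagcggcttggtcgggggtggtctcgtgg
KIF20A: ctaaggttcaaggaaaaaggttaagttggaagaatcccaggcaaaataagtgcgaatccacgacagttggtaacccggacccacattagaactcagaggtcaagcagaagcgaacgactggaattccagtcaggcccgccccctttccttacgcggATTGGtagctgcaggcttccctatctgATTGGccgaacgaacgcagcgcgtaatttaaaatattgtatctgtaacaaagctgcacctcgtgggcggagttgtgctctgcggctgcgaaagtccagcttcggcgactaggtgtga

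The first 3 genes act before or during replication and each window holds an E2F core, which in E2F2 starts at position -41 and in TYMS at -39. CCNB2 and TOP2A, both expressed for mitosis, hold 4 CCAAT boxes each, with 2 CHR in TOP2A and 1 in CCNB2, which starts at -29. The MCM6 window also holds 2 CCAAT boxes and a CHR. KIF20A holds 2 CCAAT boxes and neither of the other motifs. Entries were found for 38 of the 45 members. An E2F core stood in the windows of 18 of 21 replication members (85.7%) and 3 of 17 mitosis members (17.6%), against 15.3% of 27305 genes. A CHR stood in 2 of 21 replication members (9.52%) and 12 of 17 mitosis members (70.6%), against 19.5% of all genes. CCAAT stood in 14 of 21 (66.7%) and 15 of 17 (88.2%), against 39.7%, and CCAAT together with a CHR stood in 11 of 17 mitosis members (64.7%), against 9.02% of all genes. A match describes letters and is not evidence of binding.

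Libraries of the double-loss table held 9144150 to 19789622 counts, and those of the knockout clones and their wild type held 14917644 to 29993652. In the double-loss table a member had between 86 counts (CCNE1) and 17119 counts (TOP2A) in a library, with a median of 2776. In wild type without a knockdown the members were among the strongly expressed genes: their median was 7.85 log2 TPM in the authors' deposited table, against 4.78 over 13050 genes above 0. TOP2A, which untangles DNA, stood at 10.12 ± 0.0938 log2 TPM (SD, n = 3), and CENPF, a kinetochore protein, at 9.17 ± 0.226. The lowest were the cyclin E genes, which start S phase with CDK2, with CCNE1 at 4.06 ± 0.284 and CCNE2 at 4.05 ± 0.301 log2 TPM.

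The targeted genes were read first. SMARCA4 had 10.2 and 28.4 CPM in ARID2 knockout with SMARCA4 knockdown, 20.5 and 23.2 CPM in SMARCA4 knockout with ARID2 knockdown, 43.3 and 132 CPM in wild type with both knockdowns, 288 and 346 CPM in ARID2 knockout, 26.6 and 23 CPM in SMARCA4 knockout, and 302 and 325 CPM in wild type with control knockdown. CPM here and below is the count scaled to a common library size after TMM normalization. SMARCA4 was low in every library where it was targeted, least so in replicate 2 of wild type with both knockdowns. In that group SMARCA4 was not called against wild type (edgeR quasi-likelihood test, log2 fold change -1.84, adjusted p = 0.104), and it is counted as a double loss by its labels. ARID2 had 46.3 and 23.7 CPM in ARID2 knockout with SMARCA4 knockdown, 27.4 and 23.7 CPM in SMARCA4 knockout with ARID2 knockdown, 28.7 and 27.8 CPM in wild type with both knockdowns, 30.1 and 30.6 CPM in ARID2 knockout, 50 and 30.8 CPM in SMARCA4 knockout, and 45.8 and 31.7 CPM in wild type. The ARID2 message was not called in any of the 5 contrasts with wild type (edgeR quasi-likelihood test, log2 fold changes between -0.60 and 0.06), so the loss of ARID2 could not be checked at the level of its RNA, and "ARID2 knockout" and "ARID2 knockdown" below are the labels' words.

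In ARID2 knockout with SMARCA4 knockdown against wild type, 7 of 45 members fell and none rose: PCNA, TYMS, RRM1, MCM6, MKI67, CENPF and CCNB2. A gene is called when its adjusted p (edgeR quasi-likelihood test, Benjamini-Hochberg over 14601 genes) is under 0.05; of all genes tested, 7.9% were called lower and 7.06% higher. The members' median log2 fold change was -0.21, against -0.01 over all genes, and 35 of 45 lay below 0. With the replicate number as a block, 14 members fell, where 13.8% of all genes were called lower; the 7 above kept their calls and CDT1, CDC25C, GINS2, CENPE, E2F2, BUB1 and CDK1 joined them. Every library of this group lay below both wild-type libraries for 24 members, where this held for 26.6% of all genes. The count moved with single libraries: it was 18 without replicate 2 of the group, 1 without its replicate 1, 2 without wild-type replicate 2, 5 without wild-type replicate 1, and 3 or 4 without any one of the other 8 libraries. The share of all genes called rose with the block and may move in other fits too. It is not given for the fits without 1 library, without the low-count filter, with DESeq2 or with the GC offset. A shift of the member count there cannot be told apart from a shift over all genes. The 5 contrasts with wild type share its 2 libraries. In bulk RNA, fewer cycling cells and less RNA per cell cannot be told apart.

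Among the licensing genes, MCM6, a subunit of the replicative helicase, had 265 and 318 CPM in ARID2 knockout with SMARCA4 knockdown, against 403 and 405 CPM in wild type. The groups did not overlap, and the log2 fold change was -0.47 (SE 0.114, adjusted p = 0.0196). CDT1, the licensing factor, had 50.6 and 85.5 CPM against 92.9 and 136 CPM in wild type, and its log2 fold change was the lowest of the members at -0.75 (SE 0.247, adjusted p = 0.0633), not called without the block. All 8 licensing genes lay below 0, with a median of -0.33, and 1 was called. Of the 9 genes of the fork, 7 lay below 0 with a median of -0.09, and PCNA alone was called; this sliding clamp of the polymerases had 209.6 and 296 CPM, against 458 and 326 CPM in wild type (log2 fold change -0.63, SE 0.19, adjusted p = 0.0459). The wild-type libraries were far apart for PCNA, and its call was kept in 2 of the 12 fits that left out 1 library.

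Nucleotide supply gave 2 calls among 3 genes. TYMS, thymidylate synthase, had 124 and 134 CPM in ARID2 knockout with SMARCA4 knockdown, 166 and 161 CPM in SMARCA4 knockout with ARID2 knockdown, 194 and 140.5 CPM in wild type with both knockdowns, 229.5 and 188 CPM in ARID2 knockout, 159 and 146 CPM in SMARCA4 knockout, and 207 and 173 CPM in wild type. The 2 libraries with ARID2 knockout and SMARCA4 knockdown were the lowest of the 12. The log2 fold change was -0.56 against wild type (SE 0.169, adjusted p = 0.0461). RRM1, the large subunit of ribonucleotide reductase, had 237 and 301 CPM against 421 and 349 CPM in wild type (log2 fold change -0.52, SE 0.145, adjusted p = 0.036), and the libraries did not overlap. Its partner RRM2 had a log2 fold change of 0.10 and was not called. Leaving out 1 library at a time, TYMS kept its call in 2 of 12 fits and RRM1 in 4 of 12.

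The mitotic calls were CENPF, MKI67 and CCNB2. CENPF had 403 and 387 CPM in ARID2 knockout with SMARCA4 knockdown, 409 and 423 CPM in SMARCA4 knockout with ARID2 knockdown, 405 and 463 CPM in wild type with both knockdowns, 555 and 571 CPM in ARID2 knockout, 436 and 391 CPM in SMARCA4 knockout, and 539 and 531 CPM in wild type. The 4 libraries of ARID2 knockout and wild type with control knockdown were the highest, and the 8 others did not overlap with them. In ARID2 knockout with SMARCA4 knockdown it stood at -0.44 on the log2 scale against wild type (SE 0.11, adjusted p = 0.0228), and the call was kept in 10 of 12 fits that left out 1 library. MKI67, the Ki-67 protein that coats mitotic chromosomes, had 345 and 341 CPM in ARID2 knockout with SMARCA4 knockdown, 333 and 332 CPM in SMARCA4 knockout with ARID2 knockdown, 360.3 and 377 CPM in wild type with both knockdowns, 491 and 426 CPM in ARID2 knockout, 394 and 374 CPM in SMARCA4 knockout, and 440.4 and 507 CPM in wild type. The 4 libraries of the first 2 groups were the lowest of all. Its log2 fold change was -0.47 in ARID2 knockout with SMARCA4 knockdown (SE 0.115, adjusted p = 0.0217). CCNB2, a B-type cyclin, had 179.5 and 206 CPM against 239.9 and 258 CPM in wild type (log2 fold change -0.37, SE 0.113, adjusted p = 0.0481), a call kept in 1 of those 12 fits. The 5 checkpoint and passenger-complex genes gave no call (median -0.21), and the 6 spindle and kinetochore genes had a median of 0.07.

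**Figure D1:**
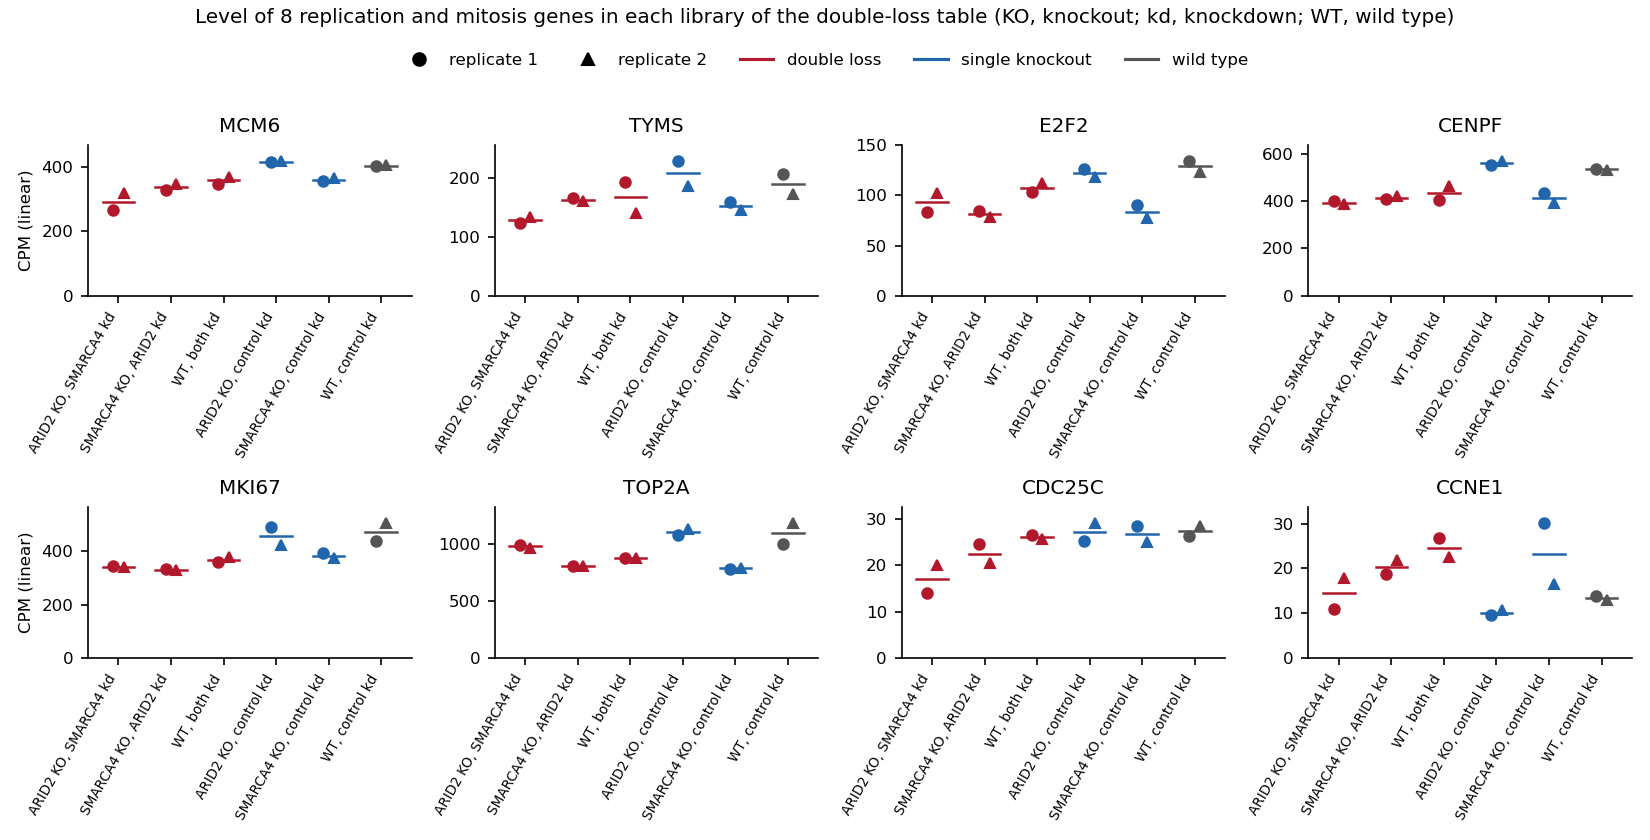
CPM of 8 members in each of the 12 libraries of the double-loss table, on linear axes from 0; circles are replicate 1, triangles replicate 2, and lines the group mean (KO, knockout; kd, knockdown; WT, wild type), with double losses left, single knockouts next and wild type right. MKI67 was lowest in the libraries of the first 2 double losses, and CENPF was highest in ARID2 knockout and wild type.

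In SMARCA4 knockout with ARID2 knockdown against wild type, 4 members fell and none rose, where 5.73% of all genes were called lower and 6.02% higher: E2F2, MKI67, CCNB2 and TOP2A. The median was -0.19 and 38 of 45 lay below 0. E2F2, a transcription factor that activates replication genes, had 84 and 78.3 CPM in this group, 90.7 and 77 CPM in SMARCA4 knockout, and 134 and 124 CPM in wild type. Both groups without SMARCA4 lay below wild type in every library, with log2 fold changes of -0.67 in the double loss (SE 0.147, adjusted p = 0.0122) and -0.62 in SMARCA4 knockout (SE 0.146, adjusted p = 0.0234). MKI67 and CCNB2 had log2 fold changes of -0.51 (SE 0.115, adjusted p = 0.014) and -0.47 (SE 0.113, adjusted p = 0.0183). TOP2A had 812 and 807 CPM, 787 and 789.9 CPM in SMARCA4 knockout, and 1006 and 1188 CPM in wild type (log2 fold changes -0.44 and -0.48). With the block 8 members fell, where 10.2% of all genes did, adding MCM2, E2F1, CDK1 and CENPF. The count was 8 without either library of ARID2 knockout with SMARCA4 knockdown, 0 without either library of this group, 1 without wild-type replicate 2, and 4 without any one of the other 7 libraries.

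The other 3 groups gave few calls or none against wild type. In SMARCA4 knockout, E2F2 and TOP2A fell and no member rose, where 3.6% of all genes were called lower and 4.25% higher; the median was -0.16 and 39 of 45 lay below 0. With the block 5 fell, where 6.47% of all genes did, adding MCM2, CENPF and CCNB2. That count was 6 without either library of ARID2 knockout with SMARCA4 knockdown, 0 without either library of SMARCA4 knockout or without wild-type replicate 2, 1 without wild-type replicate 1, and 2 in the other fits. In wild type with both knockdowns no member was called by edgeR or DESeq2, where 0.301% of all genes were called lower and 0.349% higher; the median was -0.15, and 5 members had an unadjusted p under 0.05. In ARID2 knockout no member was called by either tool and none had an unadjusted p under 0.05, where 1.19% of all genes were called lower and 0.459% higher; its median was -0.01 and 24 of 45 lay below 0.

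A set of 5 members was followed through every group for reference. E2F1, an activator of S-phase genes, had log2 fold changes against wild type of -0.21, -0.42 and -0.18 in the 3 double losses, 0.08 in ARID2 knockout and -0.43 in SMARCA4 knockout, and none was called. MCM2 stood at -0.28, -0.44, -0.18, 0.08 and -0.48 in the same order, PCNA at -0.63, -0.45, -0.26, -0.08 and -0.35, MKI67 at -0.47, -0.51, -0.36, -0.05 and -0.30, and TOP2A at -0.16, -0.44, -0.32, 0.02 and -0.48. ARID2 knockout was the group nearest 0 for all of these genes.

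**Figure D2:**
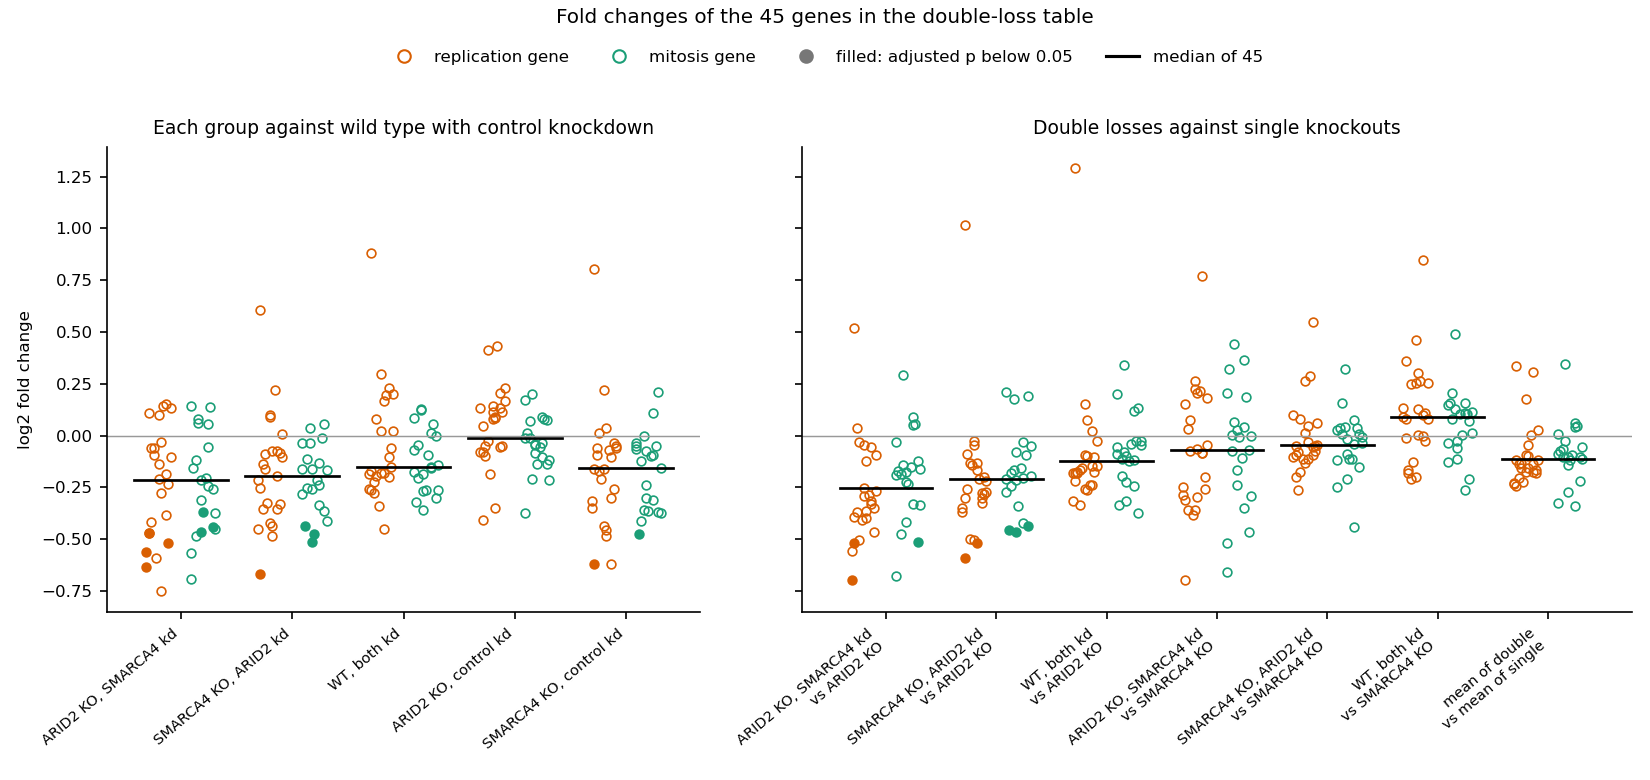
Log2 fold change of each of the 45 members, replication genes in orange and mitosis genes in green, in each group against wild type with control knockdown (left) and in the double losses against the single knockouts (right); each point is 1 gene, filled where called, and lines are medians. Left, the medians were -0.21, -0.19 and -0.15 in the double losses, -0.01 in ARID2 knockout and -0.16 in SMARCA4 knockout; right, the last column is the mean contrast, with a median of -0.11 and no filled point.

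The list was set up to ask whether the double losses lower these genes more than the single knockouts. Against the ARID2 knockout some members were lower, and against the SMARCA4 knockout edgeR on all libraries without the block called none and DESeq2 called 2 lower. The mean of the 3 double losses minus the mean of the 2 single knockouts gave no call by edgeR or DESeq2, where 0.26% of all genes were called lower and 0.438% higher; 4 members had an unadjusted p under 0.05. The median was -0.11, against -0.00 over all genes, and 35 of 45 members lay below 0. SMARCA4 was targeted in all 3 double losses but in only 1 of the 2 single knockouts. In this mean contrast an added effect of the second loss and SMARCA4 loss alone cannot be told apart. The same holds for each contrast with ARID2 knockout, where SMARCA4 was not targeted. In the mean contrast the lowest adjusted p (edgeR quasi-likelihood test) was 0.116, for MKI67, with a log2 difference of -0.27 (95% interval -0.43 to -0.11). The 95% interval in this contrast lay above -1 for all 45 members, that is, above a decrease by a factor of 2. For ARID2 knockout with SMARCA4 knockdown the interval did so for 43 of 45 against ARID2 knockout and 42 of 45 against SMARCA4 knockout. The lowest bounds there were -1.15, for CDC25C, and -1.38, for CCNE1. In the mean contrast the lowest bound was -0.69, for AURKB. With the block MKI67 and MCM6 fell, by 0.27 (adjusted p = 0.0464) and 0.24 (adjusted p = 0.0482) on the log2 scale, where 3.37% of all genes were called lower. Without replicate 2 of ARID2 knockout with SMARCA4 knockdown GINS2, MCM3 and MCM6 were called lower, and without any one of the other 11 libraries no member was. For 1 member, MCM3, every double-loss library lay below every single-knockout library, which held for 1.03% of all genes: this helicase subunit had 288 and 478 CPM, 457.5 and 472 CPM, and 413 and 463 CPM in the double losses in the order above, against 488 and 501 CPM in ARID2 knockout and 502.5 and 479 CPM in SMARCA4 knockout. The gap between its closest libraries was under 1 CPM.

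The 6 pairwise contrasts, which share their single-knockout libraries, split by the knockout they were set against. Against ARID2 knockout, ARID2 knockout with SMARCA4 knockdown had TYMS (-0.70), MCM6 (-0.52) and CENPF (-0.51) called lower, where 2.09% of all genes were, and none higher, where 2.43% were; the median was -0.25 and 39 of 45 lay below 0. With the block CENPE and MKI67 joined them, where 6.44% of all genes were called lower. The count of 3 was 11 without replicate 2 of that double loss, 0 without its replicate 1 or without either library of ARID2 knockout or of SMARCA4 knockout with ARID2 knockdown, 1 without either library of SMARCA4 knockout, 2 without replicate 1 of wild type with both knockdowns, and 3 otherwise. It was 0 without the low-count filter. SMARCA4 knockout with ARID2 knockdown against ARID2 knockout had E2F2 (-0.59), MCM2 (-0.52), MKI67 (-0.47), TOP2A (-0.45) and CENPF (-0.44) called lower, where 3.18% of all genes were, and none higher, where 4.67% were; the median was -0.21 and 41 of 45 lay below 0. That count of 5 was 0 without either library of the group or of ARID2 knockout, 2 and 3 without replicates 1 and 2 of SMARCA4 knockout, 2 without replicate 1 of wild type with both knockdowns, and 4 to 6 in the other fits. DESeq2 called none lower and 1 higher there, and without the low-count filter none was called lower. With the block 7 were called lower, E2F1 and CCNB2 among them, where 6.44% of all genes were. Wild type with both knockdowns against ARID2 knockout gave no call in edgeR, where 0.657% of all genes were lower and 1.08% higher (median -0.12, 4 members with an unadjusted p under 0.05) and 1 higher in DESeq2.

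Against SMARCA4 knockout the medians were -0.07 for ARID2 knockout with SMARCA4 knockdown, -0.05 for SMARCA4 knockout with ARID2 knockdown and 0.09 for wild type with both knockdowns. None of the 3 contrasts gave a call in edgeR, with 7, 0 and 3 members at an unadjusted p under 0.05 in that order and lowest adjusted p-values of 0.0892, 0.864 and 0.15. DESeq2 called 2 lower in the first and none in the others. Of all genes, 4.55% were called lower and 3.47% higher in the first, none lower and 0.0205% higher in the second, and 3.36% lower and 2.13% higher in the third. With the block, CDC25C, the phosphatase that activates CDK1, fell by 0.66 (adjusted p = 0.0457) and TOP2A rose by 0.32 (adjusted p = 0.0476) in the first on the log2 scale, where 9.22% of all genes were called lower and 7.6% higher. CDC25C had 14 and 20 CPM in ARID2 knockout with SMARCA4 knockdown, against 28.6 and 25 CPM in SMARCA4 knockout, with no overlap. Without replicate 2 of the double loss the median in the first contrast was -0.17, and without its replicate 1 it was 0.03.

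**Figure D3:**
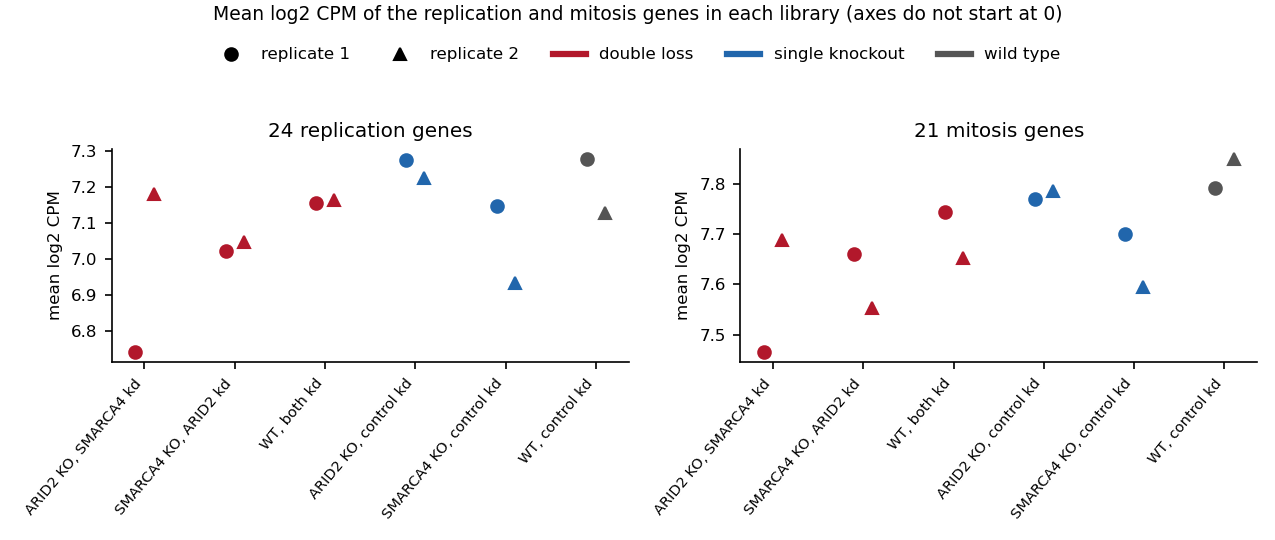
Mean log2 CPM over the 24 replication members (left) and the 21 mitosis members (right) in each of the 12 libraries; circles are replicate 1 and triangles replicate 2, and the axes do not start at 0. Replicate 1 of ARID2 knockout with SMARCA4 knockdown is the lowest in both panels.

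One library stood apart within its group. The mean over the members was 7.08 and 7.42 log2 CPM in replicates 1 and 2 of ARID2 knockout with SMARCA4 knockdown, 7.32 and 7.28 in SMARCA4 knockout with ARID2 knockdown, 7.43 and 7.39 in wild type with both knockdowns, 7.50 and 7.49 in ARID2 knockout, 7.40 and 7.24 in SMARCA4 knockout, and 7.52 and 7.46 in wild type. Replicate 1 of the first group was the lowest of the 12 and also held the least SMARCA4 message. Its replication members averaged 6.74 log2 CPM, against 7.18 in replicate 2. Whether the depth of SMARCA4 loss set that difference was not tested.

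CCNE1, a cyclin E gene, lay above wild type in several groups, unlike most members. CCNE1 had 10.9 and 18 CPM in ARID2 knockout with SMARCA4 knockdown, 18.8 and 21.9 CPM in SMARCA4 knockout with ARID2 knockdown, 26.8 and 22.5 CPM in wild type with both knockdowns, 9.54 and 10.6 CPM in ARID2 knockout, 30.2 and 16.5 CPM in SMARCA4 knockout, and 13.8 and 12.9 CPM in wild type. Its libraries in the 2 groups with SMARCA4 knockout and in wild type with both knockdowns were all above wild type. The log2 fold changes against wild type were 0.11, 0.61 and 0.88 in the double losses, -0.41 in ARID2 knockout and 0.80 in SMARCA4 knockout, and none was called. CCNE2 had 7.82 and 5.92 CPM in SMARCA4 knockout, against 12 and 9.12 CPM in wild type, and was not called there (log2 fold change -0.62, adjusted p = 0.273).

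Other genes of the same processes, from lists made beside the members, were counted beside 7.9% and 5.73% of all genes called lower and 7.06% and 6.02% higher in the 2 groups. Of 46 other replication genes tested, 2 were lower and none higher in ARID2 knockout with SMARCA4 knockdown against wild type, and 2 and none in SMARCA4 knockout with ARID2 knockdown. CDC25A, a phosphatase that activates CDK2, fell by 1.05 on the log2 scale in the second (adjusted p = 0.00271). Of 63 other mitosis genes, 7 were lower and 2 higher in the first group and 6 lower and 1 higher in the second. In the first they included HMMR (-0.91), SPC24 (-0.75), HJURP (-0.72) and CEP55 (-0.67) among the lower, and KIF4A (0.67) and CENPI (0.65) were the higher. In the second PKMYT1 (-1.01), PRC1 (-0.63) and NCAPD2 (-0.52) were lower and CENPI (0.68) higher. Medians over the other replication genes were -0.19 and -0.16 in the 2 groups, and over the other mitosis genes -0.13 and -0.09.

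Markers of other cell types moved between the same groups. The summed level of 10 blood markers was 34.8 to 42.7 CPM in ARID2 knockout with SMARCA4 knockdown, 87.5 to 93.6 in SMARCA4 knockout with ARID2 knockdown, 55.7 to 56.1 in wild type with both knockdowns, 39.4 to 47 in ARID2 knockout, 72.4 to 78.8 in SMARCA4 knockout and 113 to 119 in wild type, with GATA1 and SPI1 at the tables' minimum in all 6 groups. The sum of 7 fibroblast markers was 39.7 to 50.9, 58.4 to 71.8, 19.6 to 27.1, 29.9 to 36.9, 39.4 to 49 and 26.1 to 34.6 CPM in the same order, with LUM at the minimum in all 6 groups. For 11 markers of A549, a lung line named in the growth protocol, it was 47.4 to 72.2, 66.9 to 83.5, 38 to 48.8, 45.3 to 45.5, 72.1 to 80.4 and 51.1 to 58.9 CPM. Only 4 of the 10 blood, 4 of the 7 fibroblast and 3 of the 11 A549 markers had enough reads to be tested. In SMARCA4 knockout against wild type HCLS1 (-7.50), KIT (-4.91) and GATA2 (-1.21) were called lower and TAL1 (1.29) higher among the blood markers. KRT8 (3.66) was higher and EPCAM (-2.10) lower among the A549 markers, and COL3A1 (3.59) and THY1 (2.69) were higher among the fibroblast markers. The markers' part in the members' differences was not tested.

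In the knockout table, most clones had at least 1 member called lower, and 6 of 24 clones had none. Nearly all of these calls were by less than a factor of 2. No single member was lower in most clones: the most frequent, RRM2, was lower in 9 of 24. The targeted gene was lower in every library than in wild type in 20 of 24 clones, the exceptions being BCL11A, BCL11B, BCL7A and BRD9. SMARCA4 had 12.5, 17.9 and 11 CPM in clone 2878-4 and 13.3, 15.9 and 15.5 CPM in clone 2878-6, against 267, 262 and 235 CPM in wild type. ARID1B had 15.4, 12.7 and 21.8 CPM in its clone, against 57.5, 50.8 and 49.3 CPM in wild type, and ARID2 had 30, 27.7 and 29.9 CPM in its clone, against 49, 50.3 and 39.8 CPM in wild type. Over the 24 clones, 125 of 1080 member tests (11.6%) were called lower and 16 (1.48%) higher at an adjusted p under 0.05 over 16159 genes, where 6.78% and 7.28% of all tests were. All clones share the same 3 wild-type libraries, so these tests are not independent. The member median lay below 0 in 21 of 24 clones. In SMARCA4 clone 2878-4, 18 members fell and 1 rose, where 17.4% of all genes were called lower and 17.6% higher. In SMARCA4 clone 2878-6, 18 fell and 2 rose, where 16.2% and 16.6% of all genes did. In the ARID1B clone 17 fell and none rose (11.7% and 13.1% of all genes), in SMARCC2 14 fell and 10 rose (18% and 15.2%), in SMARCC1 11 and none (8.24% and 9.37%), in BCL7B 10 and 1 (9.48% and 10.0%), in ACTB 8 and none (6.03% and 9.09%), and in the ARID2 clone 7 and none (7.82% and 7.1%). No other clone had more than 5 lower or more than 1 higher. The knockouts of DPF1, DPF2, DPF3, SMARCA2 and SMARCD2 gave none by edgeR or DESeq2, with between 1 and 6 members at an unadjusted p under 0.05 in each, where 1.28%, 2.35%, 1.56%, 2.57% and 3.08% of all genes were called lower and 1.51%, 4.37%, 0.65%, 1.84% and 4.05% higher. Some counts rest on single replicate numbers, left out of every clone at once. In SMARCC1 the count was 5 without replicate 2, 7 without replicate 1 or without wild-type replicate 3, and 8 to 10 otherwise. In ACTB it was 3 without replicate 1 or 2, 4 without wild-type replicate 3, 5 without wild-type replicate 2, and 6 otherwise. In ARID2 it was 3 without replicate 2, 4 without replicate 1 or without wild-type replicate 3, and 5 to 9 otherwise, and in BCL7B it ran from 7 to 11. The 7 members lower in the ARID2 clone were CCNE2 (-0.57), CENPE (-0.44), RRM2 (-0.28), CCNB2 (-0.24), CDC6 (-0.22), RRM1 (-0.22) and GINS2 (-0.20). ARID2 knockout with control knockdown, in the other table, gave no call. That table has 2 libraries a group against 3 here. Its 95% intervals for ARID2 knockout against wild type spanned, at the median, 0.37 on either side, so the 2 counts differ in precision. Among the other lists, over the 24 clones, 9.06% of replication tests and 7.21% of mitosis tests were lower, and 3.08% and 2.71% higher.

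**Figure D4:**
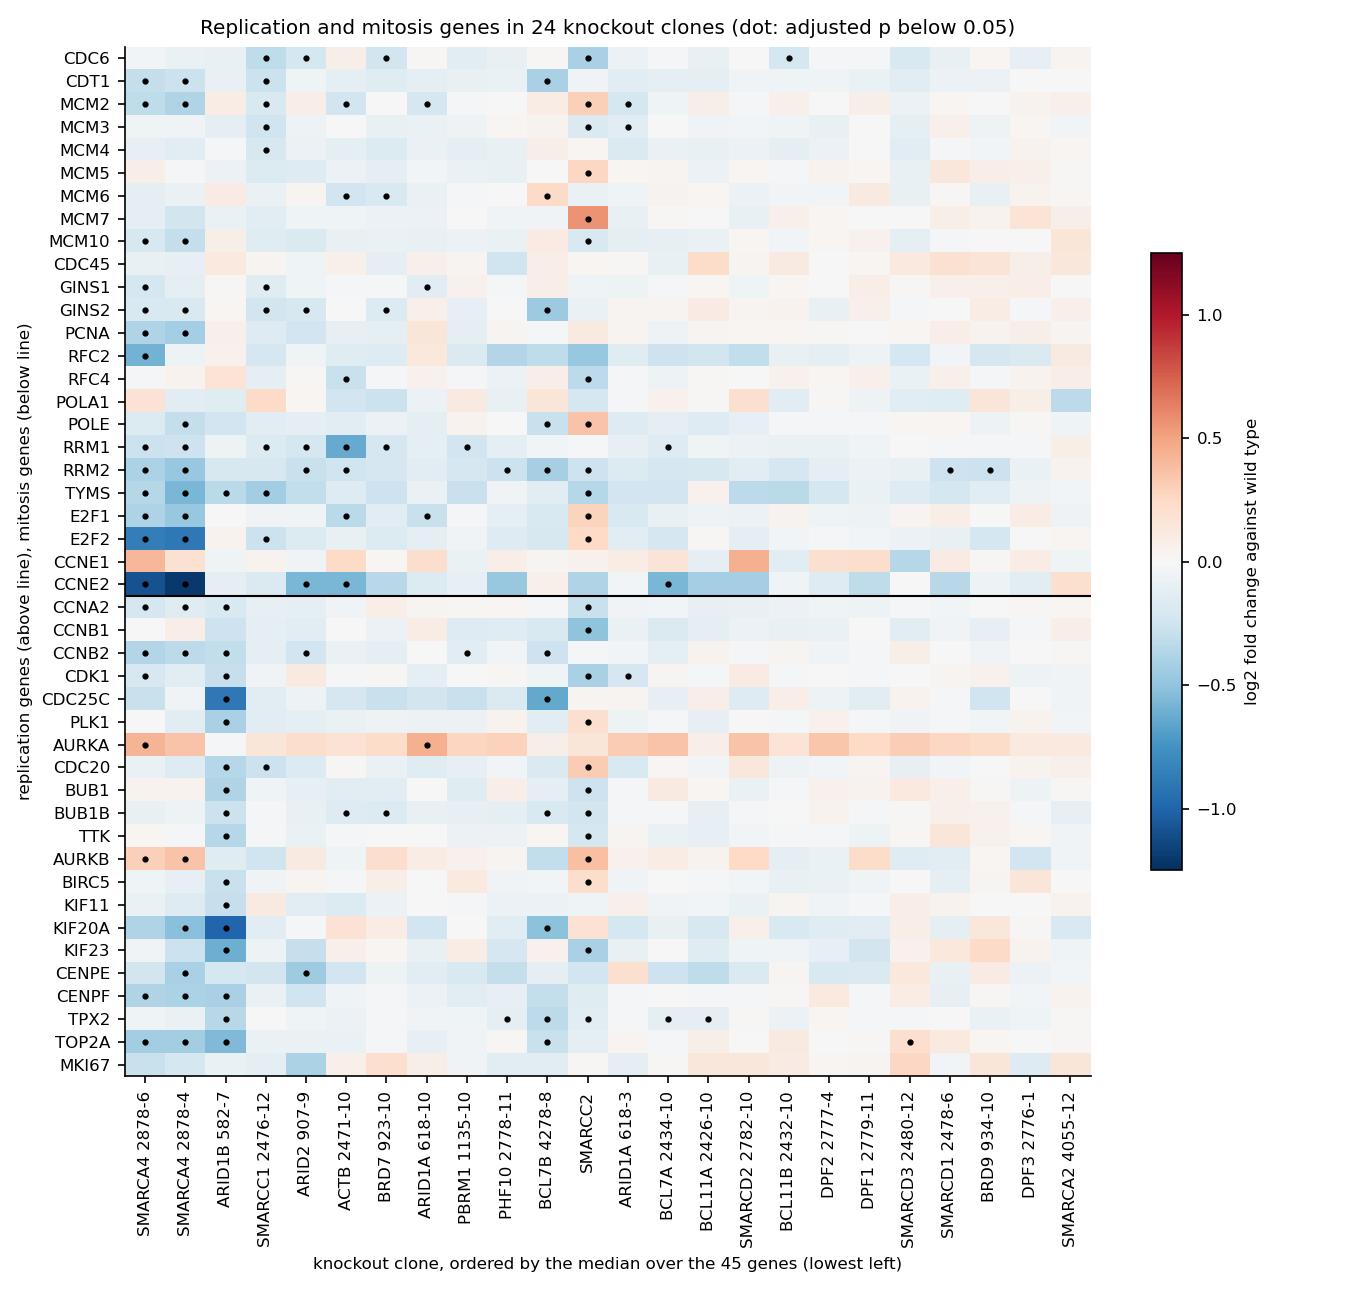
Log2 fold change against wild type of each of the 45 members (down the page, replication above the line and mitosis below it) in the 24 knockout clones (across, ordered by the members' median), with dots where the gene was called; blue is lower and red higher. The SMARCA4 and ARID1B clones at the left have medians of -0.17, -0.15 and -0.15.

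Ribonucleotide reductase recurred across clones: RRM2 was called lower in 9 of 24 clones and RRM1 in 8, and neither was higher in any. All clones share the same 3 wild-type libraries, and the share of all genes that recur as often was not counted. AURKA, a mitosis member, went the other way: it lay below wild type in 1 of 24 clones, with a median of 0.24, and was called higher in 2. RRM2 ranged from -0.47 in SMARCA4 clone 2878-4 to -0.25 in ACTB among its calls, and the lowest RRM1 value was -0.63, in the ACTB clone. MCM2 was lower in 6 clones and higher in SMARCC2, and CDC6, which loads the helicase, was lower in 5. GINS2, a subunit of the fork helicase, was lower in 6, CCNB2 in 6, and TPX2, a spindle assembly factor, in 6. BUB1B, a spindle checkpoint kinase homologue, and CCNE2 were lower in 5 each. CCNA2, cyclin A, was lower in 4 and CENPF in 3, and POLE, the catalytic subunit of polymerase epsilon, was lower in 2 and higher in 1. E2F1 and TOP2A were lower in 4 and higher in 1 each. PCNA was lower in both SMARCA4 clones. AURKB, the kinase of the passenger complex, was lower in none and higher in 3: both SMARCA4 clones (0.35 and 0.30) and SMARCC2 (0.38). The SMARCC2 calls of AURKB, MCM2, E2F1 and POLE were not kept with that clone's GC trend, given below, taken out. The highest member medians were 0.02 in SMARCA2, 0.01 in DPF3 and 0.01 in BRD9, and the only call among those 3 clones was RRM2 in BRD9 (-0.27, adjusted p = 0.0243), where 4.41% of all genes were lower and 3.86% higher. MKI67 was called in no clone, nor were CDC45, POLA1 and CCNE1; MKI67 had 610, 470 and 363 CPM in the wild-type libraries, which lay far apart.

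In the SMARCA4 clones members of both processes fell: 12 of 24 replication members and 6 of 21 mitosis members fell in clone 2878-4, and 13 of 24 and 5 of 21 in clone 2878-6, where 17.4% and 16.2% of all genes were called lower. Whether the shares of the 2 processes differ was not tested. CCNE2 was the member with the deepest change. It had 6.09, 9.5 and 6.07 CPM in clone 2878-4 and 7.54, 8.48 and 7.41 CPM in clone 2878-6, against 14.1, 15.1 and 20.7 CPM in wild type. No library of either clone reached the lowest wild-type library, and the log2 fold changes were -1.20 (SE 0.186, adjusted p = 3.12e-07) and -1.09 (SE 0.185, adjusted p = 2.35e-06). No other member reached 1 on the log2 scale and a call in any clone.

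E2F2 had 76.3, 71.8 and 73.4 CPM in clone 2878-4 and 77.4, 72.9 and 76 CPM in clone 2878-6, against 128, 136 and 148 CPM in wild type. All 6 knockout libraries lay close together and far below wild type, by -0.89 (adjusted p = 8.66e-15) and -0.86 (adjusted p = 3.53e-14). E2F1 had 81.7, 82 and 77.4 CPM and 83.3, 82.4 and 90.7 CPM in the clones, against 95.5, 113 and 126 CPM in wild type (log2 fold changes -0.47 and -0.38). TYMS fell by 0.57 (adjusted p = 0.000165) in clone 2878-4, and RFC2, a subunit of the clamp loader, by 0.59 (adjusted p = 0.0227) in clone 2878-6. TOP2A had 844, 823 and 824 CPM and 824, 845 and 822 CPM, against 1214, 1131 and 1032 CPM in wild type, lower by 0.44 in each clone. MCM2 fell by 0.37 and 0.31 and PCNA by 0.43 and 0.37.

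The 2 SMARCA4 clones had 15 lowered members in common, and no member was called between them by edgeR or DESeq2, with 2 at an unadjusted p under 0.05, where 1.85% of all genes were called lower and 1.58% higher in clone 2878-4 than in clone 2878-6. The count in clone 2878-6 was 11 without replicate 2 of the clones and 14 to 17 in the other such fits. In the double-loss table all 15 lay below 0 in SMARCA4 knockout, where 39 of all 45 members did, and 2 of them, E2F2 and TOP2A, were called. The A549 markers summed to 287 to 372 CPM in clone 2878-4 and 287 to 308 CPM in clone 2878-6, against 71.1 to 77.1 CPM in wild type. The fibroblast markers summed to 123 to 168 and 101 to 146 CPM in the clones, against 22.1 to 26.9 CPM in wild type, with LUM at the minimum in 2878-6. The blood markers summed to 24.8 to 28.4 and 74.7 to 81.8 CPM, against 92.2 to 111 CPM in wild type, with SPI1 at the minimum in both clones. Their part in the members' differences was not tested.

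The ARID1B clone showed another pattern than the SMARCA4 clones. ARID1B is a DNA-binding subunit of the canonical BAF form. In its knockout 16 of 21 mitosis members fell and 1 of 24 replication members, TYMS, did, where 11.7% of all genes were called lower. The mean over the mitosis members was 0.36 below wild type on the log2 scale, and over the replication members 0.04 below. The BCL7B clone leaned the same way by less, with means of -0.17 over the mitosis members and -0.06 over the replication members against wild type. KIF20A, a kinesin of cytokinesis, had 87.6, 85 and 89.1 CPM in the ARID1B clone, against 146, 185 and 189 CPM in wild type. Its 3 libraries lay close together and below all wild-type libraries, and the log2 fold change was -0.99 (SE 0.167, adjusted p = 4.07e-06). CDC25C had 20.8, 17 and 18.6 CPM against 33.4, 39.8 and 31.3 CPM in wild type, with no overlap (log2 fold change -0.89, SE 0.162, adjusted p = 1.64e-05). KIF23, the kinesin of the central spindle, had 109, 114 and 129 CPM against 164, 199 and 172 CPM in wild type, with no overlap either (log2 fold change -0.61, SE 0.118, adjusted p = 4.92e-05). TOP2A fell by 0.55, the mitotic kinase PLK1 by 0.40, the checkpoint kinase BUB1 by 0.37 and CDC20, which activates the anaphase-promoting complex, by 0.35. Of 63 other mitosis genes, 27 were lower and 2 higher, and of 46 other replication genes 3 were lower and 3 higher. The members' count stayed between 16 and 20 in the fits without 1 replicate. The marker sums in the clone were 40.6 to 56.7 CPM for A549, 16.6 to 20 CPM for fibroblast and 74.3 to 92.8 CPM for blood markers, where the first 2 lay below the wild-type ranges above and the blood markers overlapped theirs; their part was not tested.

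**Figure D5:**
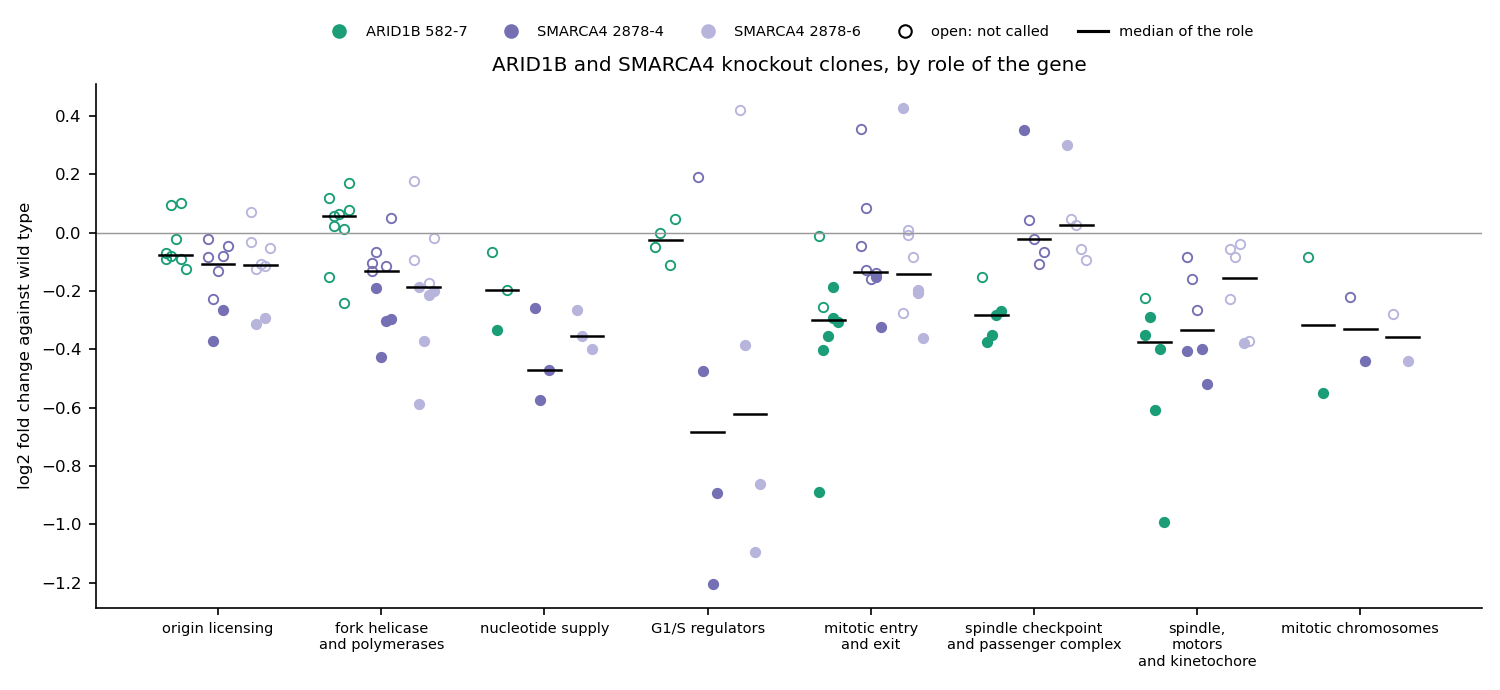
Log2 fold change against wild type of the 45 members by role in the ARID1B clone and the 2 SMARCA4 clones; each point is 1 gene, filled where called, and lines are the median of the role. Filled points of ARID1B lie in the 4 mitotic roles and, for TYMS, in nucleotide supply, and the lowest SMARCA4 points are CCNE2 and E2F2 among the G1/S regulators.

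Over all replication members the median log2 fold change was -0.04 in the ARID1B clone and -0.21 and -0.19 in SMARCA4 clones 2878-4 and 2878-6, and over the mitosis members it was -0.31, -0.14 and -0.09. The contrast of the ARID1B clone with the mean of the 2 SMARCA4 clones was added after these values were seen. It called 14 members lower, all of them mitosis genes, and 11 higher, all of them replication genes, where 20.5% of all genes were called lower and 21.5% higher. The median was 0.19 over the replication members and -0.23 over the mitosis members. CCNE2 was higher in the ARID1B clone by 1.04 (SE 0.155, adjusted p = 9.5e-08), with 14.8, 16.8 and 14.7 CPM there, and E2F2 by 0.93 (SE 0.0648, adjusted p = 1.1e-18), with 121, 144 and 160 CPM; for both genes every ARID1B library lay above every SMARCA4 library. CDC25C was lower by 0.73 (SE 0.144, adjusted p = 2.7e-05) and KIF20A by 0.55 (SE 0.148, adjusted p = 0.00185), also without overlap. All 5 checkpoint and passenger-complex genes, AURKB, BUB1, TTK, BIRC5 and BUB1B, were lower in the ARID1B clone than in the SMARCA4 clones. Against wild type AURKB was called lower in no clone and higher in both SMARCA4 clones.

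SMARCC2 was the only clone with many members called in both directions, 14 lower and 10 higher, where 18% of all genes were called lower and 15.2% higher. MCM7, a helicase subunit, had 851, 830 and 762 CPM in it, against 493, 565 and 596 CPM in wild type, and rose by 0.56 (adjusted p = 6.59e-06). CCNB1, cyclin B, fell by 0.51 (adjusted p = 6.75e-05) and CDC6 by 0.41 (adjusted p = 1.52e-05). Fold changes in this clone moved with the GC content of the transcripts (Spearman's rho 0.476 across 14508 genes, against -0.09 to 0.21 in the other clones, a description across genes that are not independent), and the mitosis members had a lower median GC content, 43.2%, than the replication members, 49.4%. With the GC trend taken out, 8 members were lower and 5 higher and the median was 0.02. Of the 10 higher members MCM7 alone kept its call, and the other 4 higher, KIF11, GINS1, TOP2A and CCNB2, were not among the 10. Higher calls numbered 3 without wild-type replicate 1, 4 and 6 without replicates 1 and 2 of the clones, and 9 to 11 otherwise. Without the SMARCC2 clone, 111 of 1035 member tests (10.7%) were lower and 6 (0.58%) higher.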

How the data were processed

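The libraries were made from poly-A RNA with a stranded kit and read as 50-base single reads, per the labels' protocols. The 2 deposited gene tables hold estimated counts per gene made by the authors, whole numbers of at least 1. Trimmomatic, Bowtie, Picard and DESeq2 and the builds GRCh37 and hg19 are named per the submitters' processing notes; no source used here gives the counting tool, its handling of strand or any version. Another deposited table of the authors holds log2 TPM, quantile-normalized by the authors as its name in the labels gives it; 71 of its columns were used, for wild-type levels and as an alternative. Of all columns, 8 matched no labelled sample and were not used.

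Counts were rounded, which left them as they were. Each table was fitted by itself with edgeR 4.0.16 (R 4.3.3): filterByExpr, TMM, robust glmQLFit with 1 term per group over all its libraries, glmQLFTest and Benjamini-Hochberg adjustment over all genes tested (14601 for the double losses, 16159 for the clones), with calls at an adjusted p under 0.05. The scripts were tested on simulated data. Alternatives were DESeq2 1.42.0 (size factors and Wald test), edgeR with relative log expression size factors, no filter on low counts, the replicate number as a block, leaving out each replicate, limma 3.58.1 on the log2 TPM and, added after seeing the data, a GC offset. In the double-loss table, same-numbered libraries of different groups deviated together in all 15 pairs of groups (r of 0.142 to 0.624). These pairs come from 6 groups and are not independent. The numbers were taken to pair libraries in the fits with the block. That pairing comes from the data, not from the labels, and calls and intervals are without the block unless stated. Among the clones, 404 of 900 pairs were over 0.1, and the numbers were not taken to pair samples. The members' means still moved with the number. In wild type the replication members averaged 7.28, 7.34 and 7.43 log2 CPM in replicates 1 to 3, and the mitosis members 7.92, 7.96 and 7.84. In most clones too, replicate 3 had the highest replication mean and the lowest mitosis mean. Clone calls are without the block and leave this shared shift in their spread.

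The members and all other lists were chosen with earlier results of these data known, and the list counts are descriptions. Named genes are, per double-loss contrast, the 5 called members with the largest change in each direction and, over the clones, the 2 members of each role called most often and the most changed calls of the 3 clones with the lowest and the 3 with the highest member median, with E2F1, MKI67, TOP2A, PCNA and MCM2 throughout. The contrast of the ARID1B clone and a few further members, such as MCM3, CDT1, AURKB and the cyclin E genes, were chosen after their values were seen. Counts limit precision: replicate libraries differed by more than counting error in both tables. Promoters are RefSeq windows on GRCh38.p14.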

Additional observations from a re-analysis of the deposited data

How the results depend on the processing

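In the double-loss table the counts of called members moved with the processing. Members called lower against wild type numbered 2 without the low-count filter, 14 with the replicate block, 11 with the GC offset and 13 in DESeq2 for ARID2 knockout with SMARCA4 knockdown, against 7 as reported. They numbered 2 without the filter and 8 with the block for SMARCA4 knockout with ARID2 knockdown, and 0 and 5 for SMARCA4 knockout. Against ARID2 knockout, ARID2 knockout with SMARCA4 knockdown gave 0 without the filter and 5 with the block; SMARCA4 knockout with ARID2 knockdown gave 0 without the filter and, in DESeq2, 0 lower and 1 higher; wild type with both knockdowns gave 1 higher in DESeq2. ARID2 knockout with SMARCA4 knockdown against SMARCA4 knockout gave 1 lower and 1 higher with the block and 2 lower in DESeq2, and the mean contrast gave 2 lower with the block. The block, which the same-numbered pairing asks for, ended no call. The no-filter fits test more genes; the cause of the other shifts was not tested.

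Leaving out 1 library leaves its group with 1, assumed to vary like the other groups. It gave 1 to 18 lower for ARID2 knockout with SMARCA4 knockdown against wild type, 0 to 11 against ARID2 knockout, and 0 to 9 lower and 0 to 1 higher against SMARCA4 knockout. It gave 0 to 8 for SMARCA4 knockout with ARID2 knockdown against wild type and 0 to 6 against ARID2 knockout, 0 to 6 for SMARCA4 knockout against wild type, 0 to 1 higher for wild type with both knockdowns against ARID2 knockout, and 0 to 3 lower for the mean contrast, whose median ran from -0.17 to -0.07.

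Over the 24 clones, 125 lower and 16 higher became 69 lower without the filter, 7 higher in DESeq2, and 76 to 122 lower and 5 to 20 higher without 1 replicate. A replicate block, whose numbers were not taken to pair those libraries, gave 147 lower and 16 higher. E2F1 in the SMARCC2 clone changed sign, -0.064 with the GC offset against 0.28 without it, which removes that clone's GC trend. With 2 libraries a group, 95% intervals of a member spanned, at the median, 0.37 on either side of its log2 fold change for ARID2 knockout with SMARCA4 knockdown against wild type and 0.24 in the mean contrast. Without 1 library, the median against SMARCA4 knockout ran from -0.17 to 0.03 for ARID2 knockout with SMARCA4 knockdown and from -0.08 to 0.03 for SMARCA4 knockout with ARID2 knockdown, and that of ARID2 knockout against wild type from -0.03 to 0.04.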
